A study of Mus musculus with 12 samples.

Results

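The genes described here encode the CD3 chains, the CD8 coreceptor, the constant regions of the alpha-beta T cell receptor and 2 proximal signalling molecules, as counted in sorted NK and CD8+ T lymphocytes of mouse tumors. The members were taken by name: Cd3e, Cd3d, Cd3g, Cd247, Cd8a, Cd8b1, Trac, Trbc2, Lat and Zap70. All 10 were found among the 54232 genes of the count table, and all 10 were among the 13275 genes tested. The gates were CD45+, CD3ε-, NK1.1+ for NK cells and CD45+, CD3ε+ with CD8a+ for T cells, applied to MC38 colon adenocarcinomas grown in the flanks of sex- and age-matched mice of 6 to 12 weeks and taken after 8 to 10 days, with 300 cells per library. The mice were untreated and on the C57BL/6N background in all groups. They were wild type (WT), carried the targeted Tyk2tm1Biat deletion in all cells (TYK2KO, here KO), or carried the K923E exchange that leaves TYK2 without kinase activity (TYK2KE, here KE). Each of the 6 groups had 2 libraries, and the labels do not say whether the 2 came from separate animals, so p-values may measure technical spread only. In such bulk libraries, fewer cells of a type and less RNA per cell cannot be told apart.

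An alpha-beta T cell recognizes a peptide on an MHC molecule through its receptor chains, whose short tails cannot signal. The signal is passed on by the CD3 chains epsilon, delta and gamma and by the zeta chain encoded by Cd247, which carry tyrosine motifs (ITAMs) that bind ZAP70 once phosphorylated, after which ZAP70 phosphorylates the adaptor LAT, while CD8 binds MHC class I and brings in the kinase LCK. NK cells have no rearranged antigen receptor, but they use the zeta chain, ZAP70 and SYK behind activating receptors such as CD16 and NKp46.

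Library totals lay between 10378761 and 14732882 counts, where a gene with 3 counts, the limit that a count of 0 allows, stood at 0.218 to 0.276 CPM (reads per 1e6 reads of the library). CPM values were scaled by trimmed mean of M-values (TMM). Ncr1, the gene of NKp46, reached 843 to 2298 CPM in NK libraries and 1.02 to 1.99 in CD8 libraries. The 6 CD4 T cell genes summed to 1041 to 2496 CPM in CD8 libraries, mostly Ctla4 and Icos, which activated CD8+ T cells also express, and to 101 to 484 CPM in NK libraries. Cd4 itself was at 0 in all 6 CD8 libraries, Foxp3 was at 15.3 and 45.9 CPM in WT CD8 and at 0 in the mutant CD8 libraries, and Cd40lg reached 26.1 CPM in 1 KO CD8 library and 18.4 and 11.3 in KE. Tyk2 counts did not separate the genotypes, with 46.7 to 119 CPM over all libraries, so that KO is used here as the label gives it. The 13 myeloid marker genes summed to 8972 and 8326 CPM in WT NK libraries, 5284 and 24.2 in KO, with 61.6 and 257 in KE, against 50.2 to 396 over the CD8 libraries. The 12 NK marker genes summed to 6428 CPM in WT CD8 replicate 1 and 281 to 1349 in the other CD8 libraries, but 6218 CPM of the former were Gzma, a granzyme gene that cytotoxic T cells also express, and the other 11 genes summed to 209.5 CPM there and to 224 to 571 in the other CD8 libraries. Without that library 6 members were called lower in WT NK cells, beside 0.181% of all genes. Of the B cell markers, Ighm was at 285 to 746 CPM in NK and 157 to 520.5 in CD8 libraries, Cd79b reached 32.5 CPM in WT NK replicate 2, and Cd79a and Pax5 were at 0 in every library, with a sum of 0 to 50.7 CPM over the 6 epithelial genes.

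The 10 members were unequal in how far NK cells fell below CD8+ T cells. The CD8 chains were nearly absent from NK libraries, the epsilon, delta and gamma chains of CD3 and Trac stood at a few percent of the CD8 level or less, Trbc2 and Lat at 7.77 to 15.0%, and Cd247 and Zap70 at 43.5 to 56.6%. For 9 of the 10 genes every NK library lay below every CD8 library. That held for 2.83% of all genes tested, while 2.03% had every NK library above. Called genes are those with an edgeR quasi-likelihood FDR (the Benjamini-Hochberg adjusted p over all genes tested) under 0.05 and a log2 fold change of at least 1 in size. By this rule 8 of 10 members were called lower in NK cells in WT, where 0.429% of all genes were called lower and 0.347% higher. In KO 8 members were called lower (0.58% of all genes lower, 0.324% higher) and in KE 6 (0.369% lower, 0.331% higher). The KO count was 5 without any 1 of the 6 CD8 libraries, where 0.279 to 0.452% of all genes were called lower. No member was called higher in NK cells. Over the members the log2 fold changes had a median of -6.13 in WT, -4.87 in KO and -4.36 in KE, beside 0.01, 0 and 0 over all genes. Cd3e and Cd8a products defined the sort gates, so their differences check the gates and are no finding. Cd3d, Cd3g, Trac and Trbc2 encode parts of the same receptor complex, and Cd8b1 a part of the coreceptor. Their differences are therefore tied to the sort as well, and the counts and medians above include all of these genes.

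**Figure D1:**
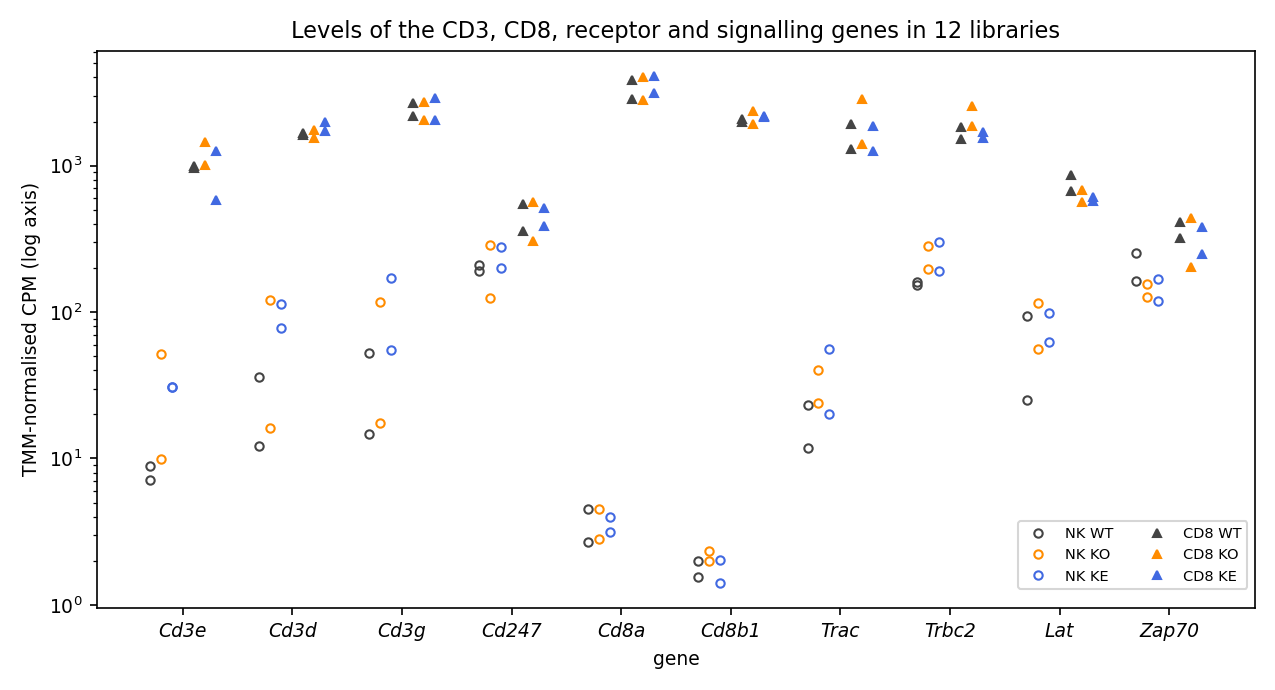
TMM-normalised CPM on a log axis of each gene in each of the 12 libraries, with open circles for NK and filled triangles for CD8 libraries, coloured by genotype. The 6 NK circles lie below the 6 CD8 triangles for every gene except Zap70, with the widest gaps for Cd8a and Cd8b1 and the narrowest for Cd247 and Zap70.

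Cd3e, Cd3d and Cd3g lie together on mouse chromosome 9 (GRCm38, gene models of GENCODE vM21, while the counts were made with the GENCODE basic set of Ensembl 93 on the same build). Cd3g (chr9:44969572-44980431, minus strand) and Cd3d (chr9:44981786-44987339, plus strand) start 1354 bases apart and point away from each other, and Cd3e follows at chr9:44998740-45009627 on the minus strand, so that the 3 genes span 40056 bases. Cd247 stands alone on chromosome 1 (chr1:165788681-165877277, plus strand). Exons of Cd3e share bases with Gm48719, and exons of Cd247 with Gm16565 and Pou2f1, so reads in those bases cannot be assigned without strand and these 2 counts carry that uncertainty. In NK cells the 3 clustered genes stood at a few percent of the CD8 level or less, and Cd247 at 44.0 to 53.0%. For these 4 genes the 250 bases upstream of the RefSeq starts are shown, 5′ to 3′ on the strand of the gene (GRCm38.p6). They lie at chr9:45009612-45009861 (Cd3e), chr9:44981536-44981785 (Cd3d), chr9:44980432-44980681 (Cd3g) and chr1:165788431-165788680 (Cd247). Capitals mark 4 short motif cores on either strand, which do not overlap here: the ETS core AGGAAG, the TCF/LEF core CTTTGA, the core AGATAA of GATA factors and the RUNX core TGTGGT.
Cd3e: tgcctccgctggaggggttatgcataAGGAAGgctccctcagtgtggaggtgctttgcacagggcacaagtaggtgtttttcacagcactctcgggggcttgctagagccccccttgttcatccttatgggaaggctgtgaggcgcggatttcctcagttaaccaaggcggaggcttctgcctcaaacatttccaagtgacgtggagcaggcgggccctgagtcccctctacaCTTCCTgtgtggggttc
Cd3d: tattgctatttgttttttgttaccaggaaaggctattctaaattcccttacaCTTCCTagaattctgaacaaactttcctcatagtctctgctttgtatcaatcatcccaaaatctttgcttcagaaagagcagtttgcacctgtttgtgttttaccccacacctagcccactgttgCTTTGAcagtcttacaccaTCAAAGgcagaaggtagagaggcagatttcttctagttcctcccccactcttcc
Cd3g: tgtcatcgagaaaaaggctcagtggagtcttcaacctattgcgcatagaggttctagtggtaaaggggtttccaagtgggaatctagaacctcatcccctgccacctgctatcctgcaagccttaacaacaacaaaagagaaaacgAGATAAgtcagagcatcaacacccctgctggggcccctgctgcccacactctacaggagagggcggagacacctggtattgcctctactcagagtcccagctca
Cd247: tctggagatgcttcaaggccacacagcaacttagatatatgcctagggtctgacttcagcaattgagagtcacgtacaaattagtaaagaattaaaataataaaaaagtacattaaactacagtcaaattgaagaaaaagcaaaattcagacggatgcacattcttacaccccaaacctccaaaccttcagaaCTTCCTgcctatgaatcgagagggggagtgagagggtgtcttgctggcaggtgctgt
The Cd3e window held the ETS core 2 times, that of Cd3d held it 1 time beside 2 TCF/LEF cores, that of Cd3g held 1 GATA core only, and that of Cd247 held 1 ETS core. In windows of the same length before 32851 mouse starts, the ETS core was found in 29.5%, TCF/LEF in 13.8%, GATA in 9.99% and RUNX in 14%. These matches describe letters in a window. No RUNX core lay in any of the 4 windows. RefSeq windows were matched for 7 of the 10 members, and Cd8b1, Trac and Trbc2 had no entry.

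Cd3e, the epsilon chain that pairs with delta or gamma, was at 8.96 and 7.17 CPM in the 2 WT NK libraries, 9.93 and 51.7 in KO, with 30.8 and 31.0 in KE. The CD8 libraries held 968 and 994 CPM in WT, 1452 and 1011 in KO, with 581 and 1254 in KE. KO replicate 2 and both KE libraries were the high NK libraries, and even these were more than 10 times below the lowest CD8 library. By edgeR the log2 fold change of NK over CD8 was -6.93 ± 0.76 (SE, FDR 0.00177) in WT, -5.32 ± 0.70 (FDR 0.00589) in KO and -4.89 ± 0.69 (FDR 0.0096) in KE.

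Cd3d, the delta chain, showed 12.1 and 36.2 CPM in WT NK libraries, 16.2 and 120.5 in KO, with 77.5 and 112.7 in KE, against 1669 and 1621, 1739 and 1545, and 1718 and 2000 in the CD8 libraries of the same genotypes. The CD8 libraries were close to each other, while NK libraries of 1 genotype differed by up to 7.44-fold (KO). Its edgeR log2 fold change was -6.09 ± 0.88 (FDR 0.00917) in WT, -4.59 ± 0.82 (FDR 0.0287) in KO and -4.29 ± 0.81 (FDR 0.0449) in KE.

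Cd3g, the gamma chain, behaved alike, with 14.7 and 52.4 CPM in WT NK libraries, 17.5 and 116 in KO, with 55.0 and 172 in KE. CD8 libraries had 2662 and 2182 CPM in WT, 2727 and 2062 in KO, with 2050 and 2877 in KE. Replicate 2 was the higher of the NK pair in all 3 genotypes, by 3.12-fold to 6.64-fold, and the groups did not overlap. EdgeR gave a log2 fold change of -6.17 ± 0.99 (FDR 0.0172) in WT, -5.16 ± 0.94 (FDR 0.0331) in KO and -4.44 ± 0.91 in KE, where the FDR of 0.0609 missed the threshold. The KE value was called in 5 of 18 alternatives, among them the fit with the replicate number as a block (FDR 0.0477), DESeq2 and the fits without either KO NK library. The calls of Cd3d and Cd3g were lost when single libraries were left out: Cd3d had FDRs up to 0.0891 in WT (without NK replicate 1), 0.0946 in KO (without CD8 replicate 1) and 0.361 in KE (without NK replicate 1). For Cd3g the largest were 0.132 in WT (without NK replicate 1) and 0.107 in KO (without CD8 replicate 1), and Cd3e in KE went to 0.141 without NK replicate 1.

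Cd247, whose zeta chain serves both the T cell receptor and NK receptors, was at 209 and 190 CPM in WT NK libraries, 287 and 125 in KO, with 198 and 278 in KE. In CD8 libraries the values were 359 and 549, 565 and 305, and 388 and 510 CPM. All 6 NK libraries lay below all 6 CD8 libraries, but KO NK replicate 1 (287) came close to KO CD8 replicate 2 (305). The edgeR log2 fold changes of -1.19 ± 0.43 in WT (FDR 0.365), -1.08 ± 0.42 in KO (FDR 0.44) and -0.92 ± 0.42 in KE (FDR 0.537) did not pass. The WT value was called in 1 of 18 alternatives, the edgeR fit without a filter on low counts (FDR 0.0442). NK libraries thus held 44.0% ± 13.3 (propagated SD, n = 2 and 2) of the CD8 level in WT, 47.4% ± 33.1 in KO and 53.0% ± 16.2 in KE, where Cd3e stood at 0.822% ± 0.13, 2.50% ± 2.48 and 3.37% ± 1.75. Within NK libraries there were 2.42 to 28.9 Cd247 counts for each Cd3e count, and within CD8 libraries 0.302 to 0.667.

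Cd8b1 (chr6:71322788-71337494) and Cd8a (chr6:71373427-71379173) lie on the plus strand of chromosome 6 with 35932 bases between them, and encode the beta and alpha chains of the coreceptor. Cd8a stood at 4.52 and 2.70 CPM in WT NK libraries, 2.81 and 4.51 in KO, with 3.96 and 3.15 in KE. Among CD8 libraries it was at 2843 and 3851 CPM in WT, 4043 and 2825 in KO, with 3148 and 4086 in KE. The NK level was above the 3-count limit in each library and equalled 0.0982 to 0.108% of the CD8 level. This limit covers counting error only, and the origin of these few counts was not tested. On the log2 scale edgeR gave -9.86 ± 0.44 (FDR 1.79e-06) in WT, -9.87 ± 0.44 (FDR 1.76e-06) in KO and -9.99 ± 0.44 (FDR 1.65e-06) in KE.

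Cd8b1 was not itself used in the sort, but it encodes the partner chain of CD8a, which was. With Cd8a it had the largest differences of the members in each genotype. NK libraries held 2.01 and 1.54 CPM in WT, 2.35 and 1.99 in KO, with 2.03 and 1.42 in KE, from 19 to 30 counts a library. CD8 libraries held 2073 and 1977, 2372 and 1934, and 2151 and 2174 CPM. Its log2 fold change by edgeR was -10.15 ± 0.30 (FDR 7.12e-08) in WT, -9.95 ± 0.29 (FDR 7.87e-08) in KO and -10.29 ± 0.30 (FDR 6.57e-08) in KE. In CD8 libraries the Cd8b1 to Cd8a ratio was 0.729 and 0.514 in WT, 0.587 and 0.685 in KO, with 0.683 and 0.532 in KE, with no genotype apart from the others.

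The CD3 chains that remained in NK libraries came without CD8 in proportion. There were 2.78 to 5.42 Cd8a counts for each Cd3e count in the CD8 libraries, but 0.0871 to 0.505 in the NK libraries. The smallest ratio was that of KO replicate 2, the NK library with the most Cd3e. In the 3 NK libraries with the most Cd3e, Cd8a was at 4.51, 3.96 and 3.15 CPM, and in the other 3 at 4.52, 2.70 and 2.81. Of the CD4 T cell genes, Cd4 was at 0 to 1.25 CPM in NK libraries and Foxp3 at 0 to 0.0749, while Ctla4 was at 0.626 to 274 and Icos at 94.2 to 200.2. Trdc, the delta constant gene, was at 112 to 313 CPM in NK and 0.083 to 12.8 in CD8 libraries, and it was called higher in NK in each genotype, in WT not without CD8 replicate 1 (edgeR FDR 0.0644). The gamma constant genes were mixed. Tcrg-C1 had a median of 18.6 CPM in NK and 0.083 in CD8 libraries, but was at 0 in KO NK replicate 1 and 19.2 in KE CD8 replicate 1. Tcrg-C2 lay the other way, at 0.0782 to 64.3 CPM in NK and 33.5 to 654 in CD8 libraries, and Tcrg-C4 overlapped between them. The summed level of the gamma-delta T cell list was highest among NK libraries in KO replicate 2 (583 CPM, against 184 to 290 in the others), and was 82.2 to 693 CPM in CD8 libraries. The 4 NKT genes summed to 48.0 to 295 CPM in NK libraries, of which Cd160, a receptor gene that NK cells also express, made up 47.9 to 294 CPM. Il17rb was at 0 in every library, Izumo1r was at 0 to 0.2996 CPM in NK libraries, and Zbtb16 was at 0 in all but the KO NK libraries, with 0.626 and 21.1 CPM. Sox13 and Il17a were at 0 in every library. The part of other T cells in the NK levels of CD3 was not tested.

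**Figure D2:**
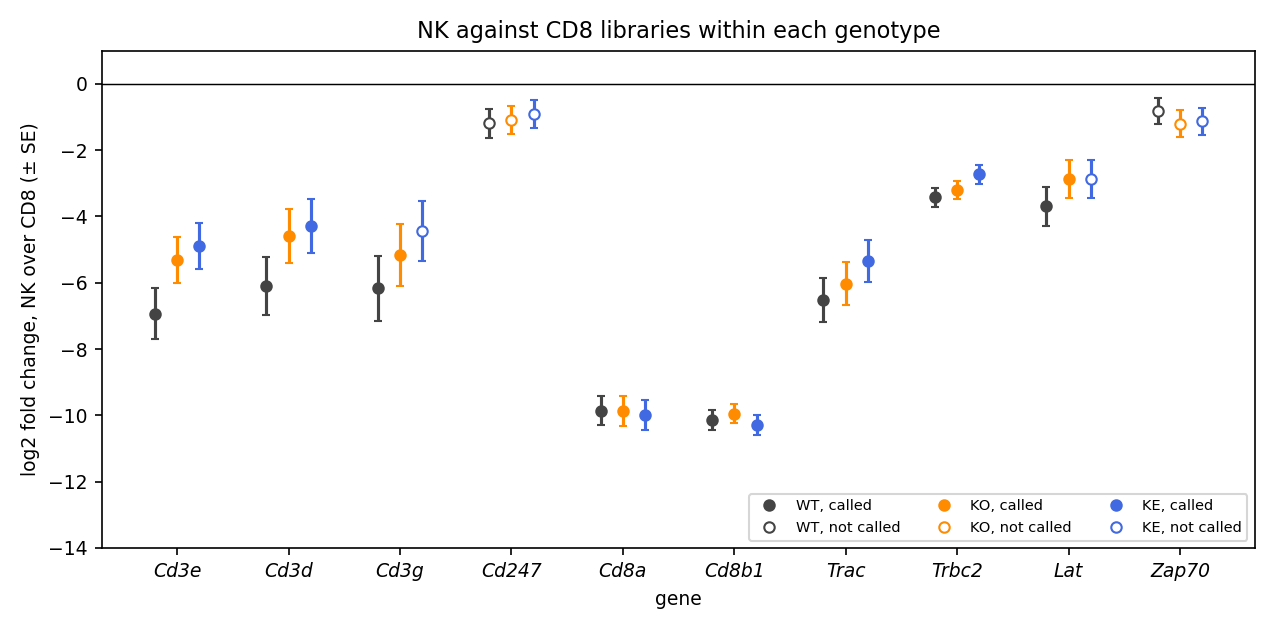
Log2 fold change of NK over CD8 libraries from edgeR for each gene, with bars of 1 SE, in WT, KO and KE; filled points were called, open points were not. All points lie below 0, Cd8a and Cd8b1 near -10, and Cd247 and Zap70 between -0.82 and -1.20 with open points.

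Trac (chr14:54220521-54224206, plus strand), the only constant gene of the alpha chain, was at 23.4 and 11.7 CPM in WT NK libraries, 40.5 and 24.1 in KO, with 56.3 and 20.2 in KE. CD8 libraries held 1299 and 1921, 2831 and 1404, and 1264 and 1862 CPM. The groups were far apart, at 1.09 to 2.45% of the CD8 level. For Trac edgeR gave a log2 fold change of -6.52 ± 0.66 (FDR 0.00102) in WT, -6.03 ± 0.65 (FDR 0.00138) in KO and -5.35 ± 0.63 (FDR 0.00297) in KE, and no alternative removed these calls.

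Trbc2 (chr6:41546730-41548352, plus strand), 1 of the 2 beta constant genes, was kept at a higher share than Trac. NK libraries showed 161 and 152 CPM in WT, 281 and 196 in KO, with 190 and 299 in KE, beside 1832 and 1521, 2552 and 1852, and 1705 and 1549 in CD8. The NK level was 9.36% ± 1.29 of the CD8 level in WT, 10.8% ± 3.66 in KO and 15.0% ± 4.85 in KE (propagated SD, n = 2 and 2). The edgeR log2 fold change was -3.42 ± 0.29 (FDR 0.000232) in WT, -3.20 ± 0.28 (FDR 0.000314) in KO and -2.73 ± 0.28 (FDR 0.000886) in KE. Trbc1, the near-identical beta constant gene 6848 bases upstream, is no member but bears on this value because reads that fit both genes were dropped and both are undercounted. Trbc1 was at 444 to 591 CPM in NK and 233 to 1100 in CD8 libraries, with edgeR log2 fold changes of 0.16 ± 0.51, 0.79 ± 0.51 and -0.49 ± 0.51 in WT, KO and KE (FDR 1, 0.614 and 0.844). Each NK library had less Trbc2 than Trbc1, at a ratio of 0.328 to 0.672, and each CD8 library had more, at 1.41 to 7.33.

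The segments that are joined to these constant regions separated the cell types further. In the beta locus each constant gene has its own D segment and cluster of J segments, while the V segments, apart from the inverted Trbv31, lie upstream and appear in a transcript in quantity only after rearrangement. The 35 Trbv genes summed to 42.0 and 10.9 CPM in WT NK libraries, 41.8 and 19.1 in KO, with 42.7 and 62.3 in KE, against 780 to 1471 in CD8 libraries. The 128 Trav genes summed to 6.96 to 17.1 CPM in NK and 224 to 848 in CD8 libraries. The mean log2 difference of NK minus CD8 was -5.02 for Trbv and -5.26 for Trav, each lower in 6 of 6 NK libraries (exact permutation test, two-sided, 6 against 6 libraries, p = 0.00216, adjusted p = 0.00216 over these 2 sums, the smallest these 924 regroupings allow). Every NK library lay below every CD8 library for 2.83% of all genes tested. The CD3ε gates had already parted cells with a surface receptor from cells without one, so this test cannot show more than the gates. It also pooled the 3 genotypes as exchangeable libraries. For each 100 Trbc1 and Trbc2 CPM there were 1.84 to 8.38 Trbv CPM in NK libraries and 29.4 to 75.6 in CD8 libraries.

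The V segments that remained in NK libraries were few. A single Trbv gene held 41 to 96.4% of the Trbv counts of an NK library, which were 142 to 832 counts in all, and 14.7 to 37.5% in CD8 libraries with 10574 to 20272 counts. The leading gene differed between libraries of 1 group, for instance Trbv20 in WT CD8 replicate 1 and Trbv16 in replicate 2, and Trbv16 led in both KO CD8 libraries. In NK cells it was Trbv1 and Trbv12-2 in WT, Trbv13-2 and Trbv19 in KO, and again Trbv13-2 and Trbv19 in KE.

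The J segments, which were looked at after their values had been seen and were given no test, split by cluster. The 7 Trbj1 genes that precede Trbc1 summed to 366 and 327 CPM in WT NK libraries, 440 and 286 in KO, with 403 and 365 in KE, above the 40.2 to 137 CPM of the CD8 libraries. The 7 Trbj2 genes that precede Trbc2 summed to 15.1 to 34.4 CPM in NK and 70.2 to 115 in CD8 libraries, the opposite order. NK libraries thus had counts on Trbj1 and Trbc1 with few on Trbv. The 60 Traj genes of the alpha locus summed to 1.59 to 7.46 CPM in NK and 134 to 283 in CD8 libraries.

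**Figure D3:**
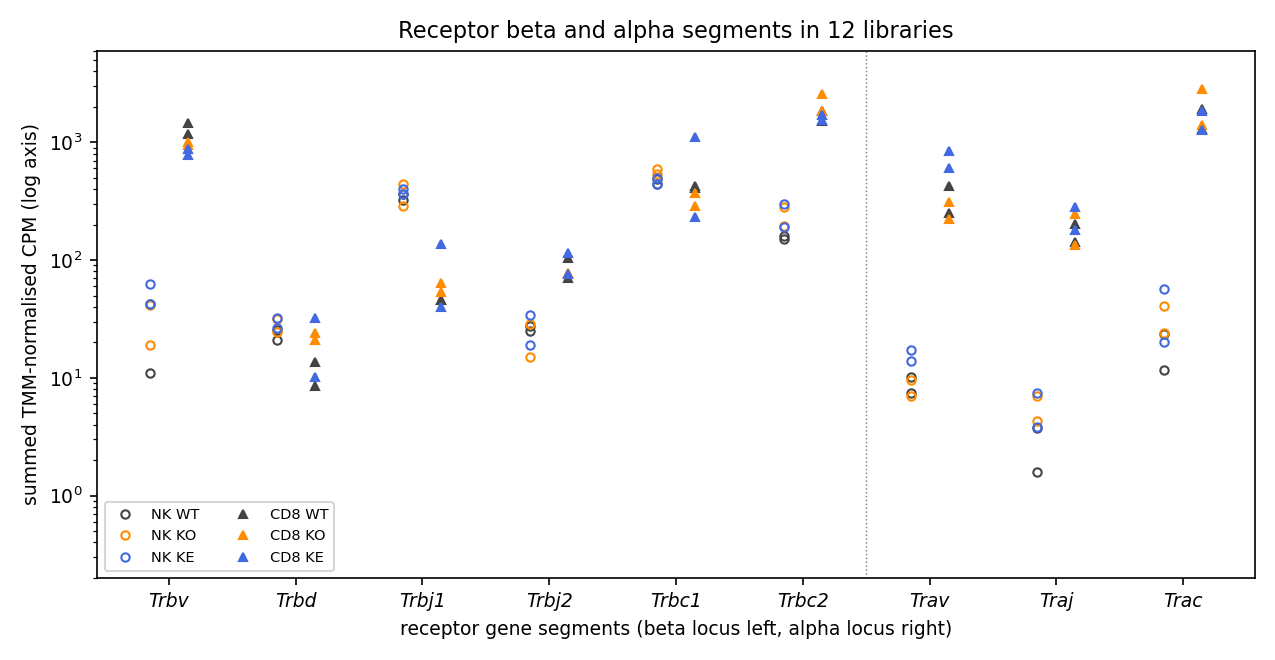
Summed TMM-normalised CPM on a log axis of the V, D, J and constant segments of the beta locus and the V, J and constant segments of the alpha locus, with open circles for NK and filled triangles for CD8 libraries. Trbj1 is higher in NK libraries (286 to 440 CPM) than in CD8 libraries (40.2 to 137 CPM), Trbc1 overlaps, and Trbv, Trbj2, Trbc2 and all alpha segments are lower in NK libraries.

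Lat (chr7:126363824-126369570, minus strand), the adaptor that ZAP70 phosphorylates, was at 25.0 and 94.3 CPM in WT NK libraries, 115 and 55.6 in KO, with 62.6 and 98.2 in KE. CD8 libraries had 671 and 865 CPM in WT, 686 and 567 in KO, with 574 and 606 in KE. All NK libraries lay below all CD8 libraries, and the 2 WT NK libraries differed by 3.77-fold. The edgeR log2 fold change was -3.69 ± 0.59 (FDR 0.0166) in WT, -2.88 ± 0.57 (FDR 0.0487) in KO and -2.88 ± 0.57 in KE, where the FDR was 0.052. The KE value was called in 6 of 18 alternatives, by DESeq2, without a filter on low counts and without any 1 of the WT and KO NK libraries. In KO the call was lost in 13 of 18 alternatives, with FDRs up to 0.263 without NK KO replicate 2, and in WT leaving out CD8 replicate 2 raised the FDR to 0.0726.

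Zap70 (chr1:36761798-36782818, plus strand), the kinase that binds phosphorylated ITAMs in T and NK cells, was the member whose groups overlapped. NK libraries held 255 and 162 CPM in WT, 155 and 126 in KO, with 119 and 168 in KE, and CD8 libraries 414 and 322, 441 and 204, and 248 and 382. The edgeR log2 fold changes were -0.82 ± 0.40 (FDR 0.518) in WT, -1.20 ± 0.40 (FDR 0.323) in KO and -1.13 ± 0.40 (FDR 0.36) in KE. None was called, also not under any alternative.

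Per kilobase of exon, which allows genes to be compared, the order of the members differed between the cell types. The Trbc2 values are too low here, because reads that also fit Trbc1 were dropped. In WT CD8 libraries Trac led with 3898 ± 1065 CPM per kb (SD, n = 2), followed by Trbc2, Cd3g, Cd8b1, Cd8a, Cd3d, Cd3e, Lat, Zap70 and Cd247 (99.7 ± 29.4). The values of Trbc2 and Cd3g, of Cd8a and Cd3d, and of Cd3e and Lat overlapped between libraries, while the other neighbours did not. In WT NK libraries Trbc2 led with 227 ± 9.39 CPM per kb, followed by Zap70 (92.9 ± 29.1), Lat (47.9 ± 39.4), Cd247 (43.8 ± 2.91), Trac, Cd3g, Cd3d, Cd3e, Cd8b1 and Cd8a (1.15 ± 0.412). Trbc2 lay apart from Zap70 there, and Cd3e apart from Cd3d and from Cd8b1, while the other neighbours overlapped. Cd247, last in CD8 cells of each genotype, ranked 4 of 10 in WT NK cells, 6 in KO and 7 in KE, where Cd3g and Trac stood above it, and Zap70 ranked 2, 5 and 5. The CD8 chains were last in NK cells of each genotype.

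Among the 10 genes whose levels followed most closely the mean of Cd3e, Cd3d and Cd3g over the 12 libraries were, beside these 3, Cxcr6 (Pearson r = 0.964 of log2 CPM, n = 12), Fkbp1a (0.964), Crmp1 (0.964), Slamf1 (0.961), Cd8a (0.96) and Xcr1 (0.959). This is a description that mainly reflects the 2 cell types. Cxcr6, a chemokine receptor of tissue-resident lymphocytes, was at 2.81 to 120 CPM in NK and 2233 to 4250 in CD8 libraries.

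Among other genes of the proximal receptor pathway, most of those called were lower in NK cells. Of the 41 genes listed outside the members 40 were tested, and in WT 7 (17.5%) were called lower and 0 higher in NK cells, beside 0.429% and 0.347% of all genes. In KO 4 (10%) were called lower and 2 (5%) higher, beside 0.58% and 0.324%, and in KE 4 (10%) lower and 1 (2.5%) higher, beside 0.369% and 0.331%. At an unadjusted p under 0.05 edgeR had 18, 17 and 19 of the 40 genes in WT, KO and KE (45%, 42.5% and 47.5%, beside 10.2%, 9.68% and 9.58% of all genes). The median log2 fold changes were -0.36, -0.35 and -0.38, beside 0.01, 0 and 0 over all genes. These counts were 12, 10 and 11 by DESeq2 in both directions together, where it called 6.33%, 6.21% and 6.15% of all genes.

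The genes called lower in all 3 genotypes were T cell proteins that tune receptor signals. Themis was at 0.391 to 0.813 CPM in NK and 138 to 577 in CD8 libraries, Cd5 at 0.15 to 1.57 and 123 to 543, and Cd6 at 0.148 to 0.313 and 112 to 278. Sit1, a membrane adaptor, was called in WT and KO, at 0.0739 to 13.5 CPM in NK and 84.5 to 129 in CD8 libraries. Among those called in WT alone were the costimulatory receptor gene Cd28 (edgeR log2 fold change -2.73 ± 0.44, FDR 0.0172) and Cd2 (-1.36 ± 0.21, FDR 0.0125), and in KE alone Dgka was called (-2.26 ± 0.29, FDR 0.00634). No gene of this list was called when the KO or KE effect was compared between the cell types.

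Among those higher in NK cells were kinases that act in receptor signalling. Txk, a TEC family kinase, was at 397 to 804 CPM in NK and 33.1 to 156 in CD8 libraries and was called in KO (4.01 ± 0.55, edgeR FDR 0.00721) and KE (3.07 ± 0.53, FDR 0.0291). Syk was at 45.7 to 93.3 CPM in NK and 0 to 0.667 in CD8 libraries and was called in KO. Of 9 NK receptor adaptors and partners, 4, 4 and 3 were called higher in WT, KO and KE and none lower, where 0.347%, 0.324% and 0.331% of all genes were called higher. Tyrobp, the ITAM adaptor DAP12, was at 1604 to 2463 CPM in NK and 8.19 to 15.5 in CD8 libraries. Fcer1g, the ITAM chain of Fc receptors that pairs with zeta, was at 2285 to 3058 and 4.90 to 123 CPM. NK cells thus showed Cd247 and Zap70 beside abundant Tyrobp and Fcer1g.

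The comparison of genotypes asked whether loss of TYK2 or of its kinase activity changed these genes. No member was called in any of the 6 comparisons between genotypes. For KO against WT in NK cells edgeR called 0 of 10 members, with 2 at an unadjusted p under 0.05 (6.31% of all genes), and called 0% of all genes. For KE against WT the counts were 0 and 3, with 6.01% of all genes at that unadjusted p and 0% called, and for KO against KE 0 and 0, with 3.8% and 0%. In CD8 cells it called 0 members, none at an unadjusted p under 0.05, in any of the 3 comparisons. Of all genes, 0.0527% were called and 4.83% had that unadjusted p for KO against WT. The shares were 0.0829% and 5.56% for KE against WT, and 0% and 3.62% for KO against KE. DESeq2 called 1 member, Cd3e, in both NK comparisons with WT, where it called 2.84% (KO) and 2.94% (KE) of all genes, and none in the other 4, with 1.56% of all genes called for KO against KE in NK cells and, in CD8 cells, 1.77% for KO against WT, 2.52% for KE against WT and 1.19% for KO against KE. KO and KE were set against the same WT libraries.

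For NK cells the values given here are those with an unadjusted p under 0.05. The log2 fold change of Cd3e was 1.93 ± 0.62 (SE) in KO (edgeR FDR 0.703) and 1.94 ± 0.62 in KE (FDR 0.637). The KO value rested on replicate 2 and was 0.28 without it, while the KE value kept between 1.77 and 2.11 in all alternatives. For Cd3d in KE the log2 fold change was 1.97 ± 0.73 (edgeR FDR 0.76), and it was 1.39 without WT NK replicate 1 and 2.95 without WT NK replicate 2. That of Trbc2 was 0.61 ± 0.26 in KO (edgeR FDR 0.766) and 0.64 ± 0.26 in KE (FDR 0.793), but 0.32 without KO NK replicate 1 and 0.28 without KE NK replicate 2. None of these passed the threshold. The members together ranged from -0.57 to 1.93 in KO, with a median of 0.56 beside -0.01 over all genes, and from -0.54 to 1.97 in KE, with a median of 0.53 beside 0. Zap70 was at the lower end in both. KO and KE NK cells differed from each other by -0.76 to 0.34.

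The NK libraries with more myeloid transcripts had lower levels of Cd3e, Cd3d and Cd3g. The 3 NK libraries with 5284 CPM or more of myeloid markers, both of WT and KO replicate 1, had 7.17 to 9.93 CPM of Cd3e, 12.1 to 36.2 of Cd3d and 14.7 to 52.4 of Cd3g. KO replicate 2 and both KE libraries, with 257 CPM or less of myeloid markers, had 30.8 to 51.7, 77.5 to 120.5 and 55.0 to 172. Trac and Trbc2 did not separate in this way, with 11.7 to 40.5 and 152 to 281 CPM in the first 3 libraries and 20.2 to 56.3 and 190 to 299 in the others. For Cd3g the 2 sets of libraries lay close, at 52.4 against 55.0 CPM. How many of all genes separate along this grouping of the libraries was not counted. The part of myeloid transcripts in the differences between genotypes was not tested. The sums of 2 other lists also differed between WT and mutant NK libraries. How many of all genes part WT from mutant NK libraries was not counted. The 6 ILC1-like genes summed to 203 and 182 CPM in WT NK libraries, below the 350 to 483 CPM of the 4 mutant NK libraries, and of these genes Itga1 alone lay higher in all 4 (95.4 to 130.2 CPM, against 46.6 and 20.0 in WT). The NKT sum was 63.8 and 48.0 CPM in WT and 169 to 295 in the mutants, through Cd160. The part of such cells in the Trbc2 values was not tested.

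In CD8 cells the members' log2 fold changes ranged from -0.29 to 0.40 in KO against WT, from -0.38 to 0.18 in KE against WT and from -0.18 to 0.44 in KO against KE, and the smallest edgeR FDR was 0.896. Standard errors, from the fit that pools the spread of both cell types, were 0.20 for Cd8b1 and 0.79 for Cd3g. Cd8b1 differed by 0.09 ± 0.20 in both comparisons with WT.

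The genotype effects were also compared between the cell types. For the KO effect in NK minus CD8 edgeR called 0 members, none at an unadjusted p under 0.05 (5.3% of all genes), and 0.00753% of all genes. For the KE effect it called 0 members, 1 at an unadjusted p under 0.05 (6.19% of all genes), and 0% of all genes; DESeq2 called 0 in both, with 1.49% and 2.12% of all genes. That member was Cd3e, whose KE effect was 2.03 ± 0.84 larger in NK than in CD8 cells (edgeR FDR 0.784). The members ranged from -0.38 to 1.61 for KO and from -0.31 to 2.03 for KE, with medians of 0.35 and 0.75 beside -0.07 over all genes in both.

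**Figure D4:**
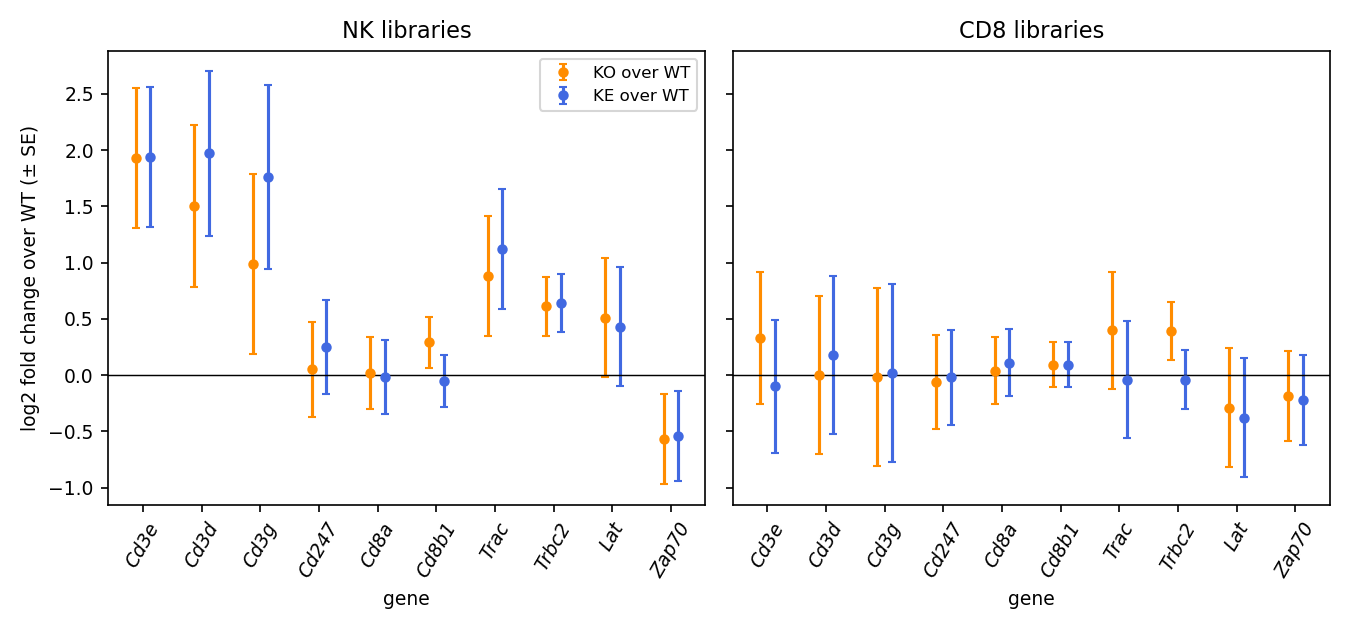
Log2 fold changes over WT for KO and KE, with bars of 1 SE, for each gene in NK (left) and CD8 (right) libraries. In NK libraries the CD3 chains lie between 0.99 and 1.97 with wide bars and none was called; in CD8 libraries all points lie between -0.38 and 0.40.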

How the data were processed

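Whole-transcriptome libraries (Smart-seq2) of 300 sorted cells were made from NK and CD8+ T cells of MC38 tumors, with 2 libraries in each of 6 groups. Per the labels and the study's methods, the authors trimmed reads with Trimmomatic, aligned them with STAR to GRCm38/mm10 and deposited raw read counts over exons per Ensembl gene, with reads mapping to several places left out, so near-identical genes are undercounted. All 12 columns of the deposited count table were used. Symbols were taken from the reference gene table, and 153 ids had none. Groups were taken from the labels.

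Counts were fitted with edgeR 4.0.16 (R 4.3.3; TMM scaling, robust quasi-likelihood F-test, two-sided, 1 mean per group over all 12 libraries) for genes whose normalized counts averaged 10 or more. A call needed an FDR below 0.05 together with a log2 fold change of 1 or more in size. The SE is the log2 fold change divided by the root of F. CPM use TMM library sizes; log2 CPM for correlations used a prior count of 2. Levels per kb use the union of exons in GENCODE vM21. The script was tested on simulated data.

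Members were named with their CPM in every library. Fold changes were given for all members between cell types, and between genotypes for members with an unadjusted p under 0.05. Listed genes were named where called, or as defining markers. Genes were named from the 10 closest to the CD3 mean by Pearson r. A few genes that these rules name are not reported here. Members and lists were chosen with earlier results of these data known. Alternatives were DESeq2 1.42.0 (Wald test), other scalings and filters, a replicate block, fits of 1 cell type and leaving out each library. Depth was 10378761 to 14732882 counts, and limits from counts cover counting error only.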

Additional observations from a re-analysis of the deposited data

Results flagged for a closer look

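Trdc, the constant gene of the T cell receptor delta chain, stood out because its KO effect differed between the cell types by the interaction test. The KO effect in NK minus CD8 was 6.88 ± 0.73 on the log2 scale (edgeR FDR 0.0279), and the KE effect was 5.51 ± 0.70 (FDR 0.0611). NK libraries held 112 and 215 CPM in WT and 240 and 313 in KO, while CD8 libraries held 10.6 and 12.8 CPM in WT and 0.23 and 0.083 in KO. The KO CD8 libraries had 3 counts and 1 count, so the fitted size depends on the prior count and is no bound. The call was lost in 10 of 18 alternatives, among them the replicate block (FDR 0.0821), and leaving out single libraries raised the FDR to at most 0.213 (without NK WT replicate 1). Trdc was also called lower within CD8 cells in both mutants, with 3 counts in each KE CD8 library. These calls were lost in 3 (KO) and 4 (KE) of 19 alternatives, with edgeR FDRs of 0.877 and 0.793 when libraries of 1 cell type only were fitted and of 0.0507 to 0.101 in the losses from leaving out single CD8 libraries.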

How the results depend on the processing

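All 30 fold changes of members between NK and CD8 cells stayed negative in each of 18 alternatives. Of these 540 values, 486 stayed on their side of the threshold, 42 lost a call and 12 gained one. The count of members called was 8 in WT, and 6 to 8 when a library was left out; 8 in KO, and 5 to 8, with 5 when any 1 CD8 library was left out; and 6 in KE, and 4 to 8. In these fits 0.181 to 0.544% of all genes were called lower in WT, 0.279 to 0.637% in KO and 0.12 to 0.521% in KE. DESeq2 called 8, 8 and 8 lower, where it called 2.87%, 3.46% and 3.17% of all genes lower. With low counts left unfiltered, edgeR called 9 members lower in WT, beside 0.966% of all genes. Of 0 members called between genotypes in NK cells, the count was 1 by DESeq2 for KO and 1 for KE (2.84% and 2.94% of all genes). Without a filter on low counts it was 2 for KO against WT, 4 for KE against WT, and 2 and 3 for the KO and KE effects in NK minus CD8, where 0.823%, 1.08%, 0.553% and 0.818% of all 23707 genes were called; the cause was not tested. Leaving out a library kept all 8 counts between genotypes and of interactions at 0 to 0. The 6 genotype or interaction values with an unadjusted p under 0.05 kept their sign in 113 of 113 values, and 6 of these gained a call. The median Cd8b1 to Cd8a ratio of 0.635 in CD8 libraries was 0.635 with RLE scaling and 0.587 to 0.683 when a CD8 library was left out. Of 390 NK levels as percent of CD8, 388 moved by less than the spread, and the others were Cd3e in KE at 5.32% without CD8 KE replicate 2 and Zap70 in KO at 68.7% without CD8 KO replicate 1. Of 57 calls of listed genes, 0 reversed and 907 of 1028 values stayed called. The proximal pathway counts of 7, 6 and 5 ranged from 3 to 13, 3 to 10 and 4 to 11 over the alternatives, while the share of all genes called ranged from 0.369 to 6.33%, 0.489 to 6.21% and 0.248 to 6.15%.

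Replicate numbers are shared between groups, but no label ties them to an animal or a batch. Deviations of same-numbered libraries correlated at -0.0254 to 0.0379 over 15 pairs of groups. With a replicate block 8, 7 and 7 members were called lower in WT, KO and KE between cell types (0.309%, 0.429% and 0.286% of all genes) and 0 in each genotype comparison and interaction. With 2 libraries a group the spread within NK groups, up to 7.44-fold for Cd3d, limits what could be called.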
